A study of Mus musculus with 30 samples.

Results

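Chemokines are small secreted proteins that guide white blood cells, and stromal cytokines are signals that connective tissue cells send to immune and bone marrow cells and to each other. In adipose tissue the stromal progenitors are a source of Csf1, Cxcl12, Ccl2 and Il6. Many of these genes are known targets of nuclear factor kappa B (NF-kB) and activator protein 1 (AP-1). Members were chosen by symbol, as protein-coding rows named Ccl or Cxcl with a number, or Cx3cl1, Il6, Il11, Il33, Il34, Lif, Csf1, Csf2, Csf3, Tslp, Tnf or Tnfsf11. This gave 47 of the 38561 genes in the table. A further 3 rows with matching symbols (Cxcl11, Ccl19-ps1 and Ccl19-ps3) were pseudogenes in GENCODE vM21 and were left out.

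Transcripts were counted in adipose-derived stem cells of inguinal fat from male C57BL6/J mice, with 1 library from each mouse. Cells were sorted as Sca-1+, CD34+, CD31-, CD45- and Ter119- and grown to passage 2, so all values describe cultured cells and not fat tissue. From weaning, lean mice were fed control chow, and obese mice a lard-based diet that drew 60% of its energy from fat. Young mice were 20 weeks old and aged mice 52 weeks old at death, giving 8 libraries each of young lean, young obese and aged lean mice and 6 of aged obese mice. Of 12 mice bought per group, 8 aged obese mice were still alive at 51 weeks, so this group holds survivors, and in obese mice age cannot be told apart from the time spent on the diet. Mice shared cages of 4 to 5, and the labels do not say which mouse came from which cage.

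Counts in genes ranged from 30597765 to 47970233 per library. The defining white blood cell markers were near 0: Ptprc and Adgre1 reached 1 count in any library, Itgam 2 and Tyrobp 5. The summed level of all 16 markers of that list lay between 13.9 and 40.2 CPM (counts relative to the library total), most of it from Csf1r and Cd68, and of the 4 tested 0 were called by edgeR in any comparison. The sort markers varied. Ly6a, which encodes Sca-1, was at 549 to 1250 CPM in 28 libraries but at 176 and 362 CPM in aged obese 10 and 12, where Cd34 was also lowest of all libraries, at 0.193 and 0.732 CPM. Young obese 1 and 2 resembled each other closely, with a mean chi-square over genes of 8.23. They held the 2 highest values of their group for 14 of the 26 members tested. Young obese 19, 20 and 21 were at least as alike, at 6.34 to 8.05 between them. Young obese 18 and 23 lay at 17.1 to 21.9 from these libraries and from each other, while pairs within the groups reached up to 476. The young lean library YL512 held the highest value of its group for 13 of 26, and aged obese 10 the lowest for 12 of 26. Such counts were not taken over all genes, so they may not be particular to the members. Given these likenesses, libraries of a group may not be independent, and the p-values measure the spread between these libraries only.

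Of the 47 members, 26 passed the filter on low counts and 21 did not. The tested members fell into 11 with a mean above 10 CPM over all libraries, 8 between 1 and 10 CPM, and 7 below 1 CPM. Among the 21 others, Ccl26, Ccl21a, Ccl21b and Ccl27b had 0 counts in every library, where a count of 0 allows up to 3 counts. Ccl1, Ccl3, Ccl4, Ccl12, Ccl22, Csf2, Cxcl13, Cxcl15 and Cxcl17 reached at most 1 to 3 counts in any library. Tnf reached 4 counts, Ccl20 and Ccl24 reached 5, and Cxcl9 reached 9. Ccl5 reached 11 counts, Ccl19 reached 13, Csf3 reached 16 and Cxcl2 reached 18. The interferon-driven ligand Cxcl9, the lymph node ligands Ccl19 and Ccl21, and the inflammatory cytokine Tnf were thus barely detectable in these cultures. Ccl19, Ccl21a, Ccl27a and their relatives have near-identical copies in the mouse genome, so their counts are uncertain.

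Per length of transcript, the 26 levels spanned several orders of magnitude. Csf1, the growth factor of macrophages, stood highest, with a mean of 334 CPM per 1000 exonic bases. Cxcl14, a ligand abundant in epithelia and fibroblasts, followed with 251, but its libraries ranged from 61.2 to 3090 CPM, so its place is not fixed. The CCR2 ligands Ccl7 and Ccl2 stood at 97.2 and 36 CPM per 1000 bases, Cxcl12, the ligand of CXCR4 and ACKR3, at 35.9, and the neutrophil attractant Cxcl1 at 28.1. Ccl2 and Cxcl12 do not differ beyond their spread. Il6 and Ccl9 followed at 15.9 and 13.3, then Lif at 9.47, Cxcl5 at 7.89, Cx3cl1 at 5.05, Ccl8 at 3.66 and Il11 at 3.17. The lowest tested members were Ccl28 at 0.0812 and Cxcl3 at 0.0748 CPM per 1000 bases. Csf1 was also among the steadiest, with its highest library 2.42-fold above its lowest, against 63.8-fold for Tnfsf11, 50.5-fold for Cxcl14 and 48.2-fold for Cxcl1.

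**Figure D1:**
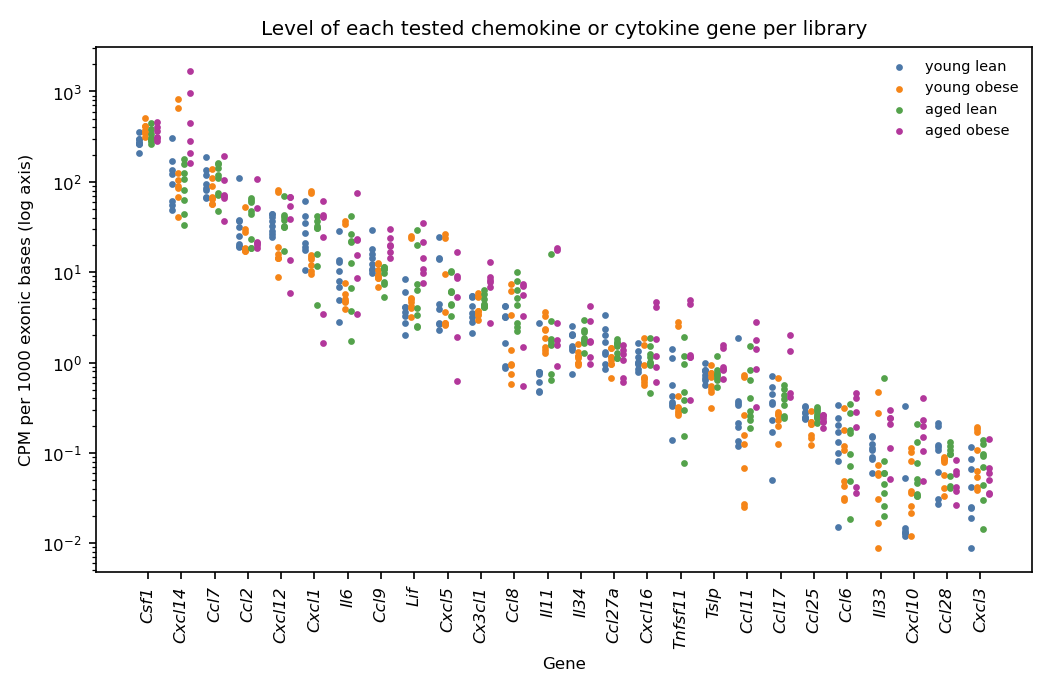
Level of each of the 26 tested members in CPM per 1000 exonic bases (vertical log axis), genes in the order of their mean (horizontal axis). Points are libraries, coloured by group, and libraries at 0 are not drawn. Csf1 lies highest with a narrow spread, while Cxcl14, Cxcl1 and Tnfsf11 spread widely within groups.

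In lean mice, age was compared between 8 aged and 8 young libraries. Of the 26 members 0 were called (adjusted p below 0.05), as were 0% of all 14438 genes tested by edgeR. Of all genes 773 had an unadjusted p below 0.05, and 3 of these were members, Ccl9, Il11 and Lif. DESeq2 called 8 genes and limma voom 6, none of them members. Ccl9 was the member with the smallest p, with a log2 difference of -0.70 ± 0.20 (SE) and an adjusted p of 0.85. Il11 differed by 1.85 ± 0.64 with the same adjusted p, and the adjusted p of both stayed above 0.3 under each alternative. The median log2 difference of the members was 0.13, beside -0.02 over all genes.

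With obesity in young mice 3 of 26 members were called, 11.5%, beside 8.83% of all genes, so the share of members was near the background. Csf1 rose, and Ccl9 and Ccl25 fell. The median over the members was -0.17 and 10 of 26 were positive, with a median of -0.02 over all genes. The libraries differed in a technical measure as well. The slope of each library's log2 levels against log2 transcript length was -0.0411 ± 0.094 (SD, n = 8) in young lean and 0.055 ± 0.0532 (SD, n = 8) in young obese libraries. With a correction for it only Csf1 remained called.

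Csf1 stood at 1110, 1440 and 1890 CPM (lowest, median, highest) in young lean and at 1660, 1920 and 2670 CPM in young obese libraries. All 8 obese libraries lay above the lean median, and the groups overlapped through YL512 and young obese 1, 2, 19 and 23. The rise was 0.46 ± 0.12 on the log2 scale, from 1470 ± 222 to 2030 ± 319 CPM (SD, n = 8 each), with an adjusted p of 0.0255 in edgeR. It missed the threshold without young lean 26 (0.41 ± 0.12, adjusted p = 0.0698) or young lean 27 (0.45 ± 0.13, adjusted p = 0.0541). It also missed it with a replicate block on mouse numbers, in a range of 0.000212 to 0.999 over all alternatives. In young mice this block kept only the libraries numbered 1 and 23 of each group. It called 0 genes of any kind there, so it cannot decide on single genes. The aged lean and aged obese medians were 1580 and 1790 CPM. In aged mice the obesity difference of Csf1 was 0.13 ± 0.13 (adjusted p = 0.761). The difference between the ages was -0.33 ± 0.18 and did not pass (adjusted p = 0.64). Il34, the other ligand of the same receptor, had medians of 3.49 CPM (young lean), 2.26 CPM (young obese), 3.53 CPM (aged lean) and 3.37 CPM (aged obese). It differed by -0.56 ± 0.25 in young mice and was not called by edgeR (adjusted p = 0.139), while limma voom called it lower, as 1 of 4265 genes. The 250 bases before the Csf1 start site (GRCm38.p6, chr3:107760470-107760719, minus strand) are shown because Csf1 is the most abundant member and held its call under most alternatives. Capitals mark matches to the NF-kB motif, searched on both strands, which 17.6% of all 32851 promoter windows of that length hold.

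Csf1: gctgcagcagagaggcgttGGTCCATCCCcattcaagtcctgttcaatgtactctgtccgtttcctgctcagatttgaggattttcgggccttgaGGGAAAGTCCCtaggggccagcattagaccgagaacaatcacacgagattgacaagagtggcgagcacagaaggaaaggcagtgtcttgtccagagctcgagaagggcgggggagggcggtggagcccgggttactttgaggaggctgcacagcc

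The 3 matches began 231, 155 and 154 bases before the start, and the last pair lies on opposite strands of the same stretch.

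Ccl25, a ligand of CCR9 best known from thymus and gut, was low. Its libraries lay at 1.77, 1.96 and 2.47 CPM in young lean and at 0.9, 1.55 and 2.17 CPM in young obese mice. Of the young obese libraries 7 of 8 lay below the young lean median, with young obese 1 and 2 lowest at 0.9 and 1.09 CPM and young obese 22 highest. Medians in aged lean and aged obese mice were 1.96 and 1.76 CPM. The fall was -0.47 ± 0.14 on the log2 scale (edgeR adjusted p = 0.0398). It ended when young obese 1 and 2 were left out together (-0.33 ± 0.14, adjusted p = 0.146), and when young lean 7, 23, 25, 26 or 27 or young obese 1, 2, 19, 20, 21 or 23 was left out alone (up to 0.0985). It also ended without a filter on low counts (0.108), with a length offset (0.0505) and with only the groups compared (0.0656). With a replicate block, which called 0 genes in young mice, it was not called either. Over all alternatives the adjusted p ranged from 0.00287 to 0.999. Ccl27a and Ccl28, the ligands of CCR10, differed by -0.63 ± 0.24 (adjusted p = 0.0814) and -0.67 ± 0.35 (adjusted p = 0.208) and were not called by edgeR with all libraries. Ccl27a was called lower by limma voom and by edgeR without young lean 1 or YL512.

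Ccl9, a ligand of CCR1 produced by macrophage and myeloid lineages, had the clearest pattern of the members. Its level was 30.1, 40.6 and 88.7 CPM (lowest, median, highest) in young lean, 21.1, 28 and 38.5 CPM in young obese, and 16.2, 31.4 and 34.7 CPM in aged lean libraries. The aged obese libraries held 43.8, 60.3 and 91.2 CPM. All 6 aged obese libraries therefore lay above every aged lean and every young obese library, while they overlapped with young lean, where YL512 alone reached 88.7 CPM. Means were 46.1 ± 19.2, 29.7 ± 6.03, 28.5 ± 6.8 and 63.1 ± 16.8 CPM (SD, n = 8, 8, 8 and 6) in that order.

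In young mice Ccl9 fell with obesity by 0.63 on the log2 scale (SE 0.20, edgeR adjusted p = 0.0425). This call ended without young lean 7, 23, 26 or 27 or YL512, or without young obese 1, 2, 18, 19, 20, 21 or 22, at adjusted p of 0.0534 to 0.0852. Without YL512 the difference was -0.42 ± 0.17. It also ended without young obese 1 and 2 together (-0.72 ± 0.22, adjusted p = 0.0725), without a filter on low counts (0.081) and with a length offset (0.107). With only the groups compared (0.0505) or a replicate block, which called 0 genes in young mice, it was not called either. The range over all alternatives was 0.0073 to 0.999.

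In aged mice, obesity was tested between 6 obese and 8 lean libraries. Ccl9 rose by 1.15 ± 0.21 on the log2 scale, 2.21-fold (edgeR adjusted p = 0.0113). It was the 1 member of 26 called, 3.85%, beside 0.222% of all genes. The call held without each single library (1.01 to 1.23, adjusted p up to 0.049). It was lost without aged obese 10 and 12 together (1.0 ± 0.23, adjusted p = 0.076), when the young libraries were left out of the model (1.16 ± 0.19, adjusted p = 0.0779) and with a replicate block (1.35 ± 0.14, adjusted p = 0.282), in a range from 0.000161. The last 2 fits called 0 genes of any kind.

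With age in obese mice, Ccl9 rose by 1.08 ± 0.21 (edgeR adjusted p = 0.00889), called without each library (up to 0.0273) and in 9 of 9 other fits. This comparison called 2 of 26 members, 7.69%, beside 3.07% of all genes. All 6 aged obese libraries exceeded all 8 young obese ones. The same aged obese libraries enter the comparison of obesity in aged mice and the interaction below. The calls of Ccl9 in them are therefore not separate evidence.

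The obesity effect on Ccl9 differed between the ages. The interaction, aged effect minus young effect, was 1.78 ± 0.29 on the log2 scale with an adjusted p of 0.0131 in edgeR, and Ccl9 was the only gene of 14438 called (0.00693% of all genes, 1 of 26 members). The call held in all 30 fits that left out 1 library (1.58 to 1.87, adjusted p up to 0.0483). Without aged obese 10 and 12 it was 1.63 ± 0.30 (adjusted p = 0.0285, in a range of 2.57e-05 to 1 over all alternatives). The call was lost with a replicate block on 12 libraries (1.53 ± 0.24, adjusted p = 1), which called 0 genes. DESeq2 called 7 genes and limma voom 91. Of the other members Tslp, a cytokine of barrier tissues, had the next smallest p, with 0.72 ± 0.30 and an adjusted p of 0.601, followed by Cxcl16 with 1.15 ± 0.51 and 0.608.

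On chromosome 11 Ccl9 lies between Ccl5 and Ccl6 in the RefSeq gene order. Ccl6, its close relative, was low (0.0273 to 0.833 CPM), and its aged obese and aged lean libraries differed by 0.61 ± 0.58 (adjusted p = 0.726) with an interaction of 1.18 ± 0.82 (adjusted p = 0.692). Ccl5 reached 11 counts and was not tested. The promoter window of Ccl9 (GRCm38.p6, chr11:83578637-83578886, minus strand) is shown because this member alone passed the interaction test. Capitals mark the TATA box motif TATAAA, which 12.4% of all windows hold, and the AP-1 motif TGANTCA, which 6.75% hold, both searched on both strands.

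Ccl9: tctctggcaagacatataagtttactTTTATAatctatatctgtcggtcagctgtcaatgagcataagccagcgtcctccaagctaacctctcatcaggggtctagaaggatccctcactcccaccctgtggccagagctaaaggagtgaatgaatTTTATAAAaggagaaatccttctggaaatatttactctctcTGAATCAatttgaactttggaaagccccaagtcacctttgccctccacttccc

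TATAAA matched 224, 94 and 92 bases before the start, the last pair overlapping on opposite strands, and TGAATCA matched 53 bases before it. The NF-kB motif and the STAT motif TTCNNNGAA gave no match in this window, which says only that these letters are not in it.

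**Figure D2:**
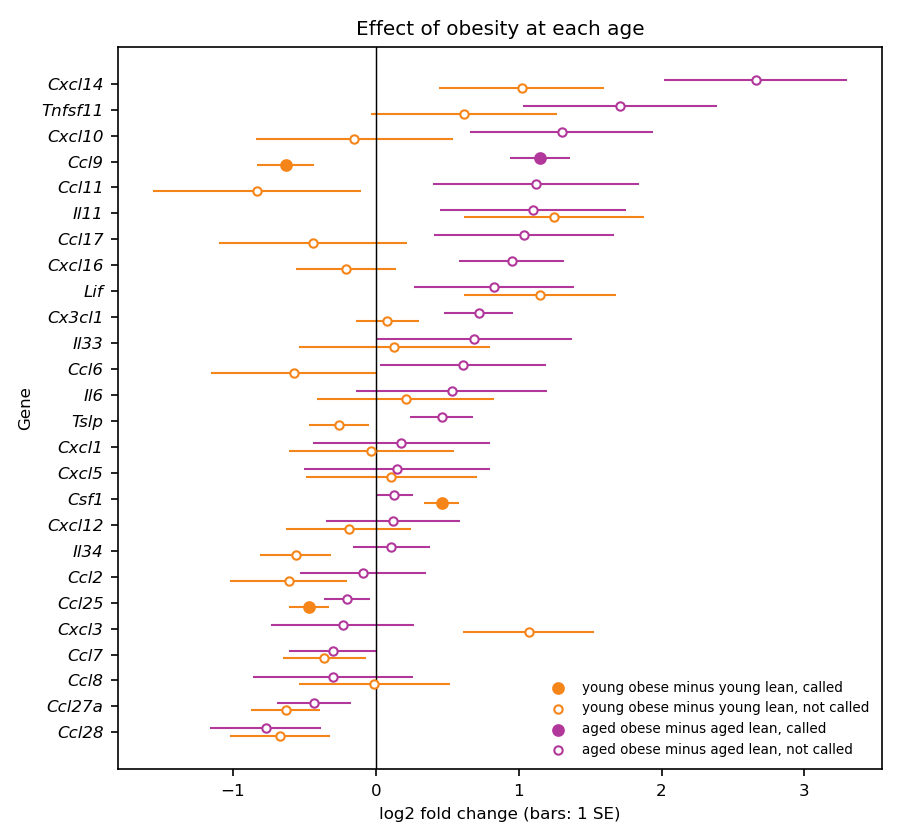
Log2 fold change of each tested member (vertical axis) with obesity in young (orange) and in aged mice (purple), with bars of 1 SE; filled points passed the threshold in edgeR. Ccl9 is the 1 member with filled points on both sides of 0, at -0.63 in young and 1.15 in aged mice.

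Cx3cl1 (fractalkine), a ligand made as a membrane-bound protein, was the other member called with age in obese mice. The aged lean median was 17.3 CPM. It was at 11.5, 14.7 and 23.2 CPM in young obese and at 10.8, 31.3 and 50.7 CPM in aged obese libraries. Of the 6 aged obese libraries 5 exceeded every young obese library, and aged obese 16 was the lowest of both groups. The rise was 0.90 ± 0.24 on the log2 scale (edgeR adjusted p = 0.036). It ended without aged obese 15, the highest library (0.70 ± 0.23, adjusted p = 0.152), without aged obese 12, 14 or 17 (0.0506 to 0.06), and without young obese 18, 19, 20, 21 or 23 (0.0588 to 0.0669). It also ended without a filter on low counts (0.0509), with only the groups compared in the fit (0.0898), and without aged lean 16, aged obese 15 and 17 together. Over all alternatives the adjusted p ranged from 0.00279 to 0.209 for Cx3cl1. Its receptor gene Cx3cr1 also rose in this comparison, by 2.26 ± 0.49 (adjusted p = 0.0159), at low levels of 0.0547 to 0.214 CPM in young obese and 0.269 to 1.06 CPM in aged obese libraries.

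Several other members had an unadjusted p below 0.01 with age in obese mice and were not called by edgeR with all libraries, though each was called under some alternatives. Cxcl16, the ligand of CXCR6, differed by 1.23 ± 0.37 (adjusted p = 0.0594, range 0.000988 to 0.308), from a median of 2.05 to 4.53 CPM, with the highest values in aged obese 14 and 15 at 14.2 and 12.5 CPM. Tslp had medians of 1.02, 0.826, 0.966 and 1.15 CPM (young lean, young obese, aged lean, aged obese) and differed by 0.73 ± 0.22 (0.0631, range 0.031 to 0.262). Il34 differed by 0.86 ± 0.27 (0.067, range 0.00585 to 0.417). Ccl11, an eosinophil attractant with medians of 0.297, 0.153, 0.373 and 1.21 CPM in the same order, differed by 2.21 ± 0.76 (0.0954, range 0.0034 to 0.383). Ccl11 was at 0 in aged obese 10 and between 0.348 and 3.05 CPM in the other 5. The members' median log2 difference was 0.77 and 21 of 26 were positive, beside a median of 0.01 over all genes. Without young obese 1 and 2 the comparison called 9 members, adding Cxcl16, Ccl11, Cxcl14, Tnfsf11, Il6, Lif and Cxcl12, beside 643 genes in all (4.46%). Without aged obese 10 and 12 it called 7, adding Il11, Cxcl16, Ccl6, Ccl11 and Il34, beside 2679 genes in all (18.3%).

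**Figure D3:**
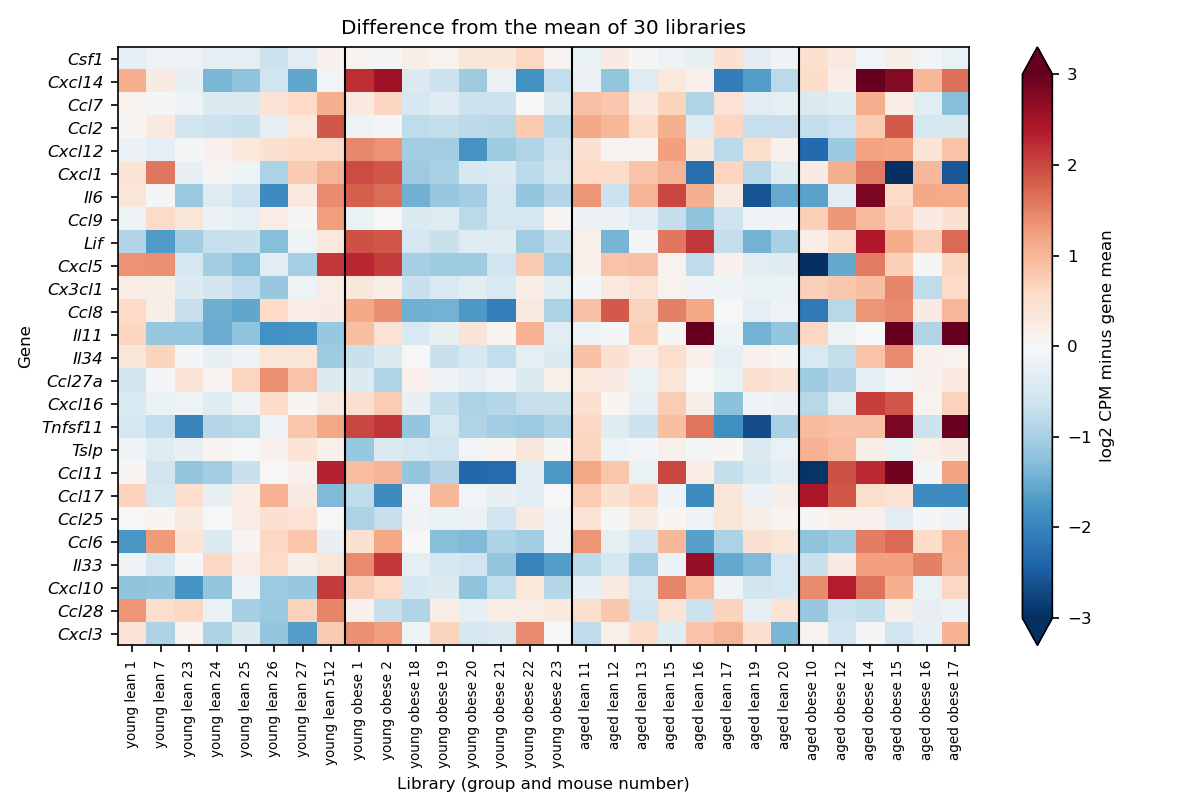
Log2 CPM of the 26 tested members (vertical axis) in 30 libraries (horizontal axis, vertical lines between groups), as the difference from each gene's mean, with colours saturating beyond 3. Young obese 1 and 2 stand above the other young obese libraries for 14 members, a count not taken over all genes. Aged lean 16, aged obese 15 and aged obese 17 share high Il11 and low Cxcl1.

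Aged obese and young lean libraries differ in both age and diet. Of 26 members 4 were called, 15.4%, beside 10.3% of all genes: Il11, Cxcl14, Cx3cl1 and Lif, all higher in aged obese. The members' median was 0.50, beside -0.01 over all genes. All 4 calls were lost when aged lean 16, aged obese 15 and aged obese 17 were left out together, a choice made after the data were seen. Calls over all genes then fell from 1483 to 532. The difference of Il11 shrank most, but these libraries are named here for their high Il11. Those of Lif, Cxcl14 and Cx3cl1 changed less, as given below.

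Il11, a cytokine of the gp130 family known from fibroblasts, was at 0.99, 1.58 and 5.7 CPM in young lean and at 1.91, 4.65 and 39 CPM in aged obese libraries. The rise was 2.95 ± 0.69 on the log2 scale (edgeR adjusted p = 0.0103). It was carried by few libraries. Il11 lay at 33.2 CPM in aged lean 16, 36.5 in aged obese 15 and 39 in aged obese 17, and between 0.99 and 7.53 CPM in the other 27 libraries. Without these 3 the difference was 0.93 ± 0.41 (adjusted p = 0.179, in a range of 0.000656 to 0.179), while leaving out any 1 library kept the call. Young obese libraries, at 2.65 to 7.53 CPM, lay above all young lean libraries except young lean 1. That difference was 1.25 ± 0.63 and was not called by edgeR with all libraries (adjusted p = 0.194). Alternatives that called it included limma voom (among 4265 genes) and edgeR with only the groups compared (1642 genes). The fit without the 3 libraries high in Il11 called it as well (1666 genes). The young obese median was 4.33 CPM and the aged lean median 3.46 CPM.

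The same 3 libraries had the lowest Cxcl1 of all, at 8.05, 3.08 and 6.42 CPM, against 17.9 to 149 CPM in the other 27. These 2 were the members of 26 for which the 3 libraries lay wholly outside the other 27, as they did for 1475 of all 14438 tested genes (10.2%), so nothing here is particular to the members. Cxcr4, the receptor of Cxcl12, was at 10, 16.7 and 14.2 CPM there and at no more than 0.415 CPM elsewhere. Clcf1, a further cytokine of the gp130 family, was at 434, 458 and 457 CPM there and at 25.4 to 140 CPM elsewhere. These libraries come from both a lean and an obese group, and the reason for their likeness was not tested.

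**Figure D4:**
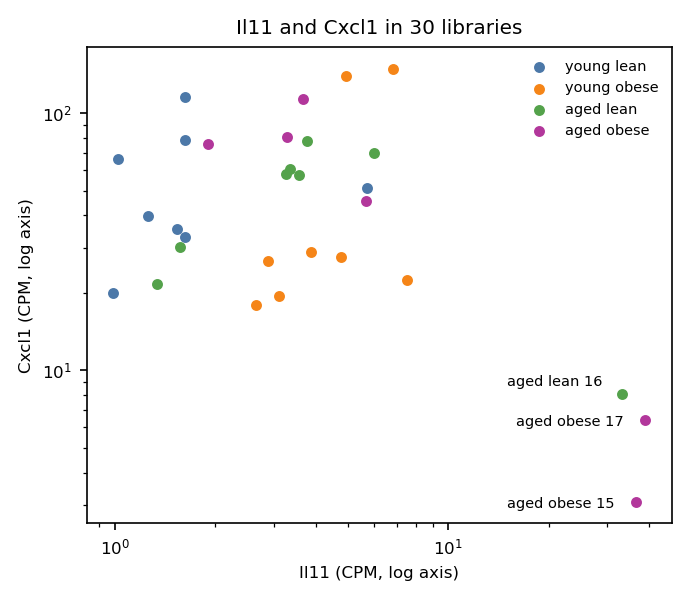
Il11 (horizontal log axis) against Cxcl1 (vertical log axis), both in CPM, with a point for each of the 30 libraries coloured by group. Aged lean 16, aged obese 15 and aged obese 17 lie apart at the lower right, with Il11 of 33.2 to 39 CPM and Cxcl1 of 3.08 to 8.05 CPM, as they lie apart for 10.2% of all tested genes.

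Lif, a sister cytokine of Il11, lay at 8.83, 16.7 and 36.1 CPM in young lean and at 33.3, 54.8 and 152 CPM in aged obese libraries. The groups overlapped only where YL512 exceeded aged obese 10. Medians of young obese and aged lean mice were 21.3 and 22.6 CPM. The rise was 1.95 ± 0.56 (edgeR adjusted p = 0.027). It was lost without young lean 26, aged obese 14, 15 or 17 (0.0501 to 0.0659) and without the 3 libraries high in Il11 (1.91 ± 0.58, adjusted p = 0.0647, in a range of 0.00896 to 0.0659). High values were not particular to aged obese mice, since young obese 1 and 2 reached 109 and 105 CPM and aged lean 16 reached 126 CPM. The promoter windows of Il11 (GRCm38.p6, chr7:4778142-4778391, minus strand, before the downstream of 2 start sites) and Lif (chr11:4257318-4257567, plus strand) are set beside that of Cxcl1 (chr5:90890995-90891244, plus strand), which was low where Il11 was high. Capitals mark matches to TGANTCA and to the NF-kB motif. The window before the other start site of Il11 is not shown; it held no match to any of the 4 motifs searched.

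Il11: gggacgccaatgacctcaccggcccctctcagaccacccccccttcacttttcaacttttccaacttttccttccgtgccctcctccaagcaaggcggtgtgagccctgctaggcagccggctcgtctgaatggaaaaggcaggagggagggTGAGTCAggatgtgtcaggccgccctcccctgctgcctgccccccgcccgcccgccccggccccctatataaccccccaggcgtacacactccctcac
Lif: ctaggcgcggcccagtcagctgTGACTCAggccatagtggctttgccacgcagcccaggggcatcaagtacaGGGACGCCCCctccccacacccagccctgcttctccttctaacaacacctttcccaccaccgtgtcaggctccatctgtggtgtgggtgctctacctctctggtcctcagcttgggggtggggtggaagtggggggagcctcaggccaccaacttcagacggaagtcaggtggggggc
Cxcl1: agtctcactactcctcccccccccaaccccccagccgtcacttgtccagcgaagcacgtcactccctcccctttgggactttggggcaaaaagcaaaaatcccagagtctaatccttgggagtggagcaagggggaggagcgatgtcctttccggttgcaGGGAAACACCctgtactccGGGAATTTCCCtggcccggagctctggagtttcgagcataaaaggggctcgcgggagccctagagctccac

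Il11 held TGAGTCA at 98 bases and Lif TGACTCA at 228 bases before the start, and Lif also GGGACGCCCC at 178 bases. Cxcl1 held GGGAAACACC at 90 bases and GGGAATTTCC at 71 bases, the latter also read from the other strand at 70 bases, and no TGANTCA. A match of letters is not evidence of binding.

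Cxcl14 was at 88.7, 197 and 553 CPM in young lean, 74.2, 179 and 1510 CPM in young obese, 61.2, 173 and 323 CPM in aged lean and 298, 670 and 3090 CPM in aged obese libraries. Aged obese 14 and 15 were highest at 3090 and 1760 CPM, and young obese 1 and 2 followed at 1200 and 1510 CPM. Against young lean the rise in aged obese was 2.34 ± 0.63 (edgeR adjusted p = 0.0198). It was lost without aged obese 14 (1.75 ± 0.62, adjusted p = 0.0627) or 15 (2.18 ± 0.66, 0.0525) and without the 3 libraries high in Il11 (2.27 ± 0.71, 0.0671), in a range of 0.00695 to 0.0671. Against aged lean the difference was 2.66 ± 0.64 and was not called (adjusted p = 0.0665). All 6 aged obese libraries lay above the aged lean median. DESeq2 called it (adjusted p = 0.0182), as did limma voom (0.0291) and the edgeR fit without young obese 1 and 2 (0.014), in a range of 0.014 to 1.

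Cx3cl1 rose by 0.98 ± 0.24 in aged obese against young lean libraries (edgeR adjusted p = 0.0119), from 8.31, 15.1 and 21.5 CPM to 10.8, 31.3 and 50.7 CPM. The call was lost without aged obese 15 (0.78 ± 0.23, adjusted p = 0.0501) and without the 3 libraries high in Il11 (0.80 ± 0.26, adjusted p = 0.0733, in a range of 0.000959 to 0.0733). This comparison shares the aged obese libraries with that of age in obese mice, so its call is not separate evidence. Against aged lean the difference was 0.72 ± 0.24 and was not called (adjusted p = 0.184). Only the edgeR fit without aged obese 16 called it (0.90 ± 0.20, adjusted p = 0.0212). Tnfsf11 (RANKL), the osteoclast differentiation factor, had medians of 0.883, 0.708, 0.962 and 2.66 CPM (young lean, young obese, aged lean, aged obese). Against young lean it differed by 1.92 ± 0.69 (0.0675) and was called by DESeq2 (0.0278) and without young obese 1 and 2 (0.0301), in a range of 0.0278 to 0.532. It was highest in aged obese 15 and 17 at 10 and 11.1 CPM. Cxcl16, with medians of 3.03 CPM (young lean) and 3.27 CPM (aged lean), differed by 1.02 ± 0.37 (0.0675). It was called by DESeq2 (0.0365), by limma voom (0.0365), without young obese 1 and 2 (0.0461) and without aged obese 10 and 12 (0.0129), in a range of 0.0129 to 0.26. Ccl28 differed by -1.11 ± 0.39 (0.0642) and was called without young lean 25 or 26, in a range of 0.0385 to 0.383.

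**Figure D5:**
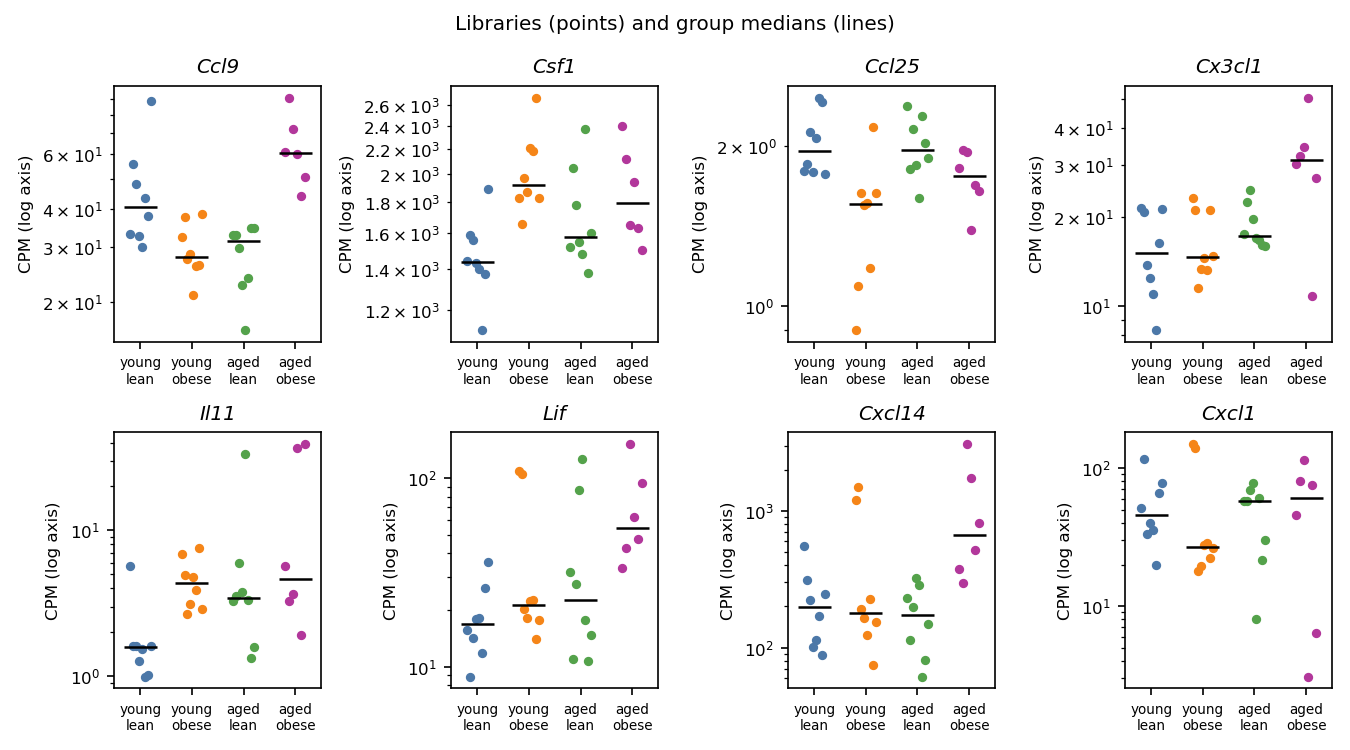
CPM (vertical log axis) of the 7 members called in any comparison, and of Cxcl1, in the 4 groups (horizontal axis); points are libraries and lines are group medians. The 6 aged obese points of Ccl9, from 43.8 to 91.2 CPM, lie above all aged lean and young obese points, while Il11, Lif and Cxcl14 show single high libraries in several groups.

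The 19 other tested members were called in no comparison by edgeR with all libraries. For age in obese mice limma voom also called Ccl6, Ccl8, Il6, Il33, Tnfsf11, Cxcl10 and Cxcl12 higher, among 2870 genes. For obesity in young mice it called Ccl6, Il33 and Cxcl12 lower, among 4265 genes. Il33 was also called higher by limma voom for obesity in aged mice and the interaction, and Cxcl10 in aged obese against young lean. Ccl2 and Ccl7, which attract monocytes, ranged over 19.3 to 126 and 29.3 to 154 CPM. Medians of Ccl2 were 32, 20.6, 52 and 24.2 CPM (young lean, young obese, aged lean, aged obese), those of Ccl7 72.7, 53.7, 92.3 and 56.5 CPM, and their differences with obesity in aged mice were -0.09 ± 0.44 and -0.30 ± 0.31. Il6, the best known gp130 cytokine, ranged over 4.21 to 182 CPM, with medians of 22.3 CPM (young lean), 13.1 CPM (young obese), 41.5 CPM (aged lean) and 46.7 CPM (aged obese). Cxcl12 had medians of 284, 124, 288 and 380 CPM in the same order and Cxcl5, which shares the receptor CXCR2 with Cxcl1, medians of 7.72, 5.97, 11.3 and 13.1 CPM. Cxcl1 had medians of 45.5, 27, 57.7 and 60.7 CPM, and its differences lay between -0.20 and 0.21 on the log2 scale in all 6 comparisons, with SE of 0.58 to 0.85. Ccl8 had medians of 1.63, 0.596, 2.44 and 2.26 CPM, and Ccl6 of 0.272, 0.141, 0.236 and 0.426 CPM. The medians of the alarmin Il33 were 0.318, 0.168, 0.152 and 0.657 CPM, and those of the interferon-driven Cxcl10 0.0302, 0.0833, 0.11 and 0.394 CPM. Ccl17 had medians of 0.182, 0.126, 0.188 and 0.226 CPM, Cxcl3 of 0.118, 0.296, 0.285 and 0.192 CPM, Ccl27a of 3.56, 2.65, 3.72 and 2.74 CPM, and Ccl28 of 0.543, 0.394, 0.47 and 0.242 CPM. At these depths the low members rest on few reads, with at most 26 counts for Cxcl3, 28 for Ccl6 and 36 for Cxcl10 in any library.

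Levels of 5 pairs of members were compared across the 30 libraries after the mean of each group was removed, with permutations within groups and p adjusted over the 5 pairs. Ccl2 and Ccl7, neighbours on chromosome 11, varied together (r = 0.771, rho = 0.852, adjusted p = 2.5e-05 for each, permutation test). Il6 and Lif did likewise (r = 0.829, rho = 0.804, adjusted p = 2.5e-05 for each, permutation test). For both pairs the unadjusted p of 1e-05 was the smallest the permutations could give. Within groups r for Il6 and Lif was 0.651 (young lean), 0.974 (young obese, where libraries 1 and 2 stand apart), 0.785 (aged lean) and 0.897 (aged obese). Cxcl12 and Csf1 varied in opposite directions (r = -0.601, rho = -0.657, permutation test, adjusted p = 0.000617 and 0.000333), but r was -0.158 within young lean. Without the 2 libraries farthest from the median of the first gene, r was 0.793, 0.804 and -0.538 for these 3 pairs. For Il6 and Lif those were aged lean 19 and aged obese 14, so young obese 1 and 2 stayed in. The permutations take libraries of a group as independent, which they may not be. Pairs of other genes were not set beside these. Cxcl1 and Cxcl5, ligands of the same receptor and both on chromosome 5, did not pass (r = 0.313, rho = 0.353, permutation test, adjusted p = 0.206 and 0.104), nor did Ccl2 and Cxcl1 (r = 0.138, rho = 0.289, adjusted p = 0.554 and 0.14). Without the 2 farthest libraries these became 0.46 and 0.524.

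Receptors and pathway genes were read from lists. Of 31 receptor genes 17 were tested. With age in obese mice 2 rose, Cx3cr1 and Cxcr4, beside 3.07% of all genes called. Cxcr4 reached 14.2 to 16.7 CPM in aged obese 15 and 17 and 0.0869 to 0.364 CPM in the other 4 (5.1 ± 1.31, adjusted p = 0.033, and 0.675 without the 3 libraries high in Il11). In aged obese against young lean 3 of the 17 were called, beside 10.3% of all genes. Cxcr6 rose there as well (2.81 ± 0.74, adjusted p = 0.017), with 8.15 and 8 CPM in aged obese 10 and 12 and 0.196 to 0.401 CPM in the other 4. Without aged obese 10 and 12 the sign turned (-0.32 ± 0.63, adjusted p = 0.752). Csf1r, the receptor of Csf1 and Il34, was present at 8.22 to 30.6 CPM and was not called. The gp130 receptor gene Il6st lay at 215 to 1050 CPM, Il11ra1 at 35.5 to 140 CPM and Lifr at 9.27 to 25.9 CPM.

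Of 32 genes of the NF-kB and interleukin-1 pathway 30 were tested. Icam1, an adhesion molecule for leukocytes, rose with obesity in both ages. Young lean libraries held 2.81, 4.86 and 6.22 CPM and young obese ones 6.65, 8.63 and 12.5 CPM (0.97 ± 0.23, adjusted p = 0.0182) with no overlap. In aged mice it went from 2.94, 4.24 and 5.13 CPM to 4.6, 10 and 18 CPM (1.35 ± 0.25, adjusted p = 0.0113), with aged obese 10, 12 and 14 highest. The call in young mice was lost without young obese 1 and 2 together (0.97 ± 0.25, adjusted p = 0.0547). The call in aged mice was lost without aged obese 10 and 12 together (0.94 ± 0.24, 0.105), without aged obese 10 alone, when the young libraries were left out of the model (1.36 ± 0.29, 0.18) and with limma voom (1.08 ± 0.28, 0.0546). With the replicate block, which called 0 genes at either age, neither was called (0.999 and 1). Icam1 was the only gene of the 30 called for obesity at either age, beside 8.83% of all genes in young and 0.222% in aged mice. In aged obese against young lean 3 of the 30 were called, beside 10.3% of all genes. There Ptgs2 (1.5 ± 0.40, adjusted p = 0.0186) and Nfkb1 (0.57 ± 0.18, adjusted p = 0.0418) rose beside Icam1 (1.19 ± 0.25, adjusted p = 0.00668, called in all alternatives). Ptgs2, which encodes a prostaglandin synthase, reached 861 and 961 CPM in aged obese 10 and 12 and 174 to 349 CPM in the other 4, against 72.4 to 349 CPM in young lean. Without these 2 its difference was 0.65 ± 0.39 (adjusted p = 0.248). Nfkb1, which encodes a subunit of NF-kB, reached 74.5 and 84.9 CPM in aged obese 15 and 17 and 37 to 46.1 CPM in the other 4, against 24.2 to 48.6 CPM in young lean. Without the 3 libraries high in Il11 its difference was 0.20 ± 0.14 (adjusted p = 0.401). The list's medians lay between -0.01 and 0.08 on the log2 scale in all 6 comparisons.

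Of 17 genes of gp130 and Janus kinase signalling 16 were tested, and 3 were called with age in obese mice, beside 3.07% of all genes. With age in obese mice Clcf1 (2.22 ± 0.51, adjusted p = 0.0223) and Socs2, a feedback inhibitor (0.85 ± 0.20, adjusted p = 0.0212), rose and Stat5b fell by 0.70 (SE 0.14, adjusted p = 0.0113). The same 3 were called in aged obese against young lean, beside 10.3% of all genes, at 2.28 ± 0.51 (0.0093), 0.62 ± 0.20 (0.0405) and -0.58 ± 0.14 (0.0127). Clcf1 was at 48.7 to 96.9 CPM in the aged obese libraries other than 15 and 17, and Stat5b was lowest of all 30 libraries in aged obese 15 (14.8 CPM), aged obese 17 (16.2 CPM) and aged lean 16 (18.4 CPM). Without the 3 libraries high in Il11 none of these calls remained. For age in obese mice the differences were then 0.67 ± 0.28 (0.307), 0.70 ± 0.18 (0.0781) and -0.53 ± 0.14 (0.0789). Of 15 interferon targets 13 were tested, and Gbp2 was the only one called, in aged obese against young lean (0.45 ± 0.14, adjusted p = 0.042, range 0.0144 to 0.16), beside 10.3% of all genes. Of 8 markers of mural cells of vessels, 2 were called with age in obese mice, 3 in aged obese against young lean and 0 with obesity in aged mice. The shares over all genes were 3.07%, 10.3% and 0.222%. Cspg4 and Pdgfrb rose with age in obese mice (2.04 ± 0.47, adjusted p = 0.0223, and 0.56 ± 0.15, adjusted p = 0.0419), and in aged obese against young lean Myh11 rose as well (1.2 ± 0.39, adjusted p = 0.0467). Without the 3 libraries high in Il11 the counts were 0 and 1. The summed level of the mural list ranged from 4310 to 8990 CPM (young lean), 7020 to 8970 CPM (young obese), 5970 to 7710 CPM (aged lean) and 5800 to 10900 CPM (aged obese), so the groups overlapped. Their part in the member results was not tested. Of 6 endothelial markers 3 were tested and 0 were called, with 1.28 to 20.8 CPM in sum. Of 10 progenitor markers 1 was called with obesity in young mice, beside 8.83% of all genes. The list's median was -0.10 and 4 of 10 were positive. The called gene, Lum, fell (-2.69 ± 0.76, adjusted p = 0.0313). Its call was lost without young obese 1 and 2 together (-2.86 ± 0.88, 0.0769). It was also lost without young lean 7, 26 or 27 or young obese 1, 2, 21 or 22 alone. With the replicate block, which in young mice rests on the libraries numbered 1 and 23, its sign turned (0.69 ± 1.08, adjusted p = 0.999). That fit called 0 genes for obesity in young mice. In a culture, fewer cells of a type and less RNA per cell cannot be told apart.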

How the data were processed

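RNA of cultured adipose-derived stem cells was sequenced in 30 libraries. The deposited table holds raw counts of reads per Ensembl gene, whole numbers not normalized by the authors. The authors used STAR, HTSeq 0.7.0 and DESeq2 1.12.4, according to the submitters' processing notes. The genome build is not given in the sources used here, nor are the annotation release and strand setting. Reads in no gene (3.94% to 8.75% per library) and ambiguous reads (2.69% to 3.41%) stayed out of library sizes and tests.

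Groups came from sample titles. In edgeR 4.0.16 (R 4.3.3) filterByExpr by group left 14438 genes, libraries were scaled with TMM, and all 30 entered 1 quasi-likelihood fit of the 4 groups. P-values were Benjamini-Hochberg adjusted over all genes, and genes below 0.05 were called. Levels are CPM on scaled totals, means ± SD. Biotypes and exonic lengths came from GENCODE vM21 and promoters, the 250 bases before each start, from RefSeq (GRCm38.p6), which matched 34 of the 47 members.

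Members and lists were chosen with earlier results of these data known. Named were all members, each with its level if tested and its highest count if not, members called or with an unadjusted p below 0.01 with their statistics, and up to 4 called genes per list and comparison. Levels given of uncalled receptor and marker genes, and the library sets described, were picked after values were seen. Pairs of libraries within a group differed by a mean chi-square of 6.34 to 476 over genes, more than counting noise gives. Intervals and floors cover counting error only. Alternatives were DESeq2 1.42.0, limma 3.58.1 voom with quality weights, other scalings and filters, a length offset, a fit of only the groups compared, a replicate block and left-out libraries; those for list genes were added after values were seen. The scripts were tested on simulated data.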

Additional observations from a re-analysis of the deposited data

Results flagged for a closer look

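In 7 of 104 sets of a tested member and a group, 1 library stood outside the rest by Dixon's criterion at 95%, in 6 members; chance gives about 1 in 20. Il11 was at 5.7 CPM in young lean 1, against 0.99 to 1.62 CPM in the other young lean libraries. Il11 was at 33.2 CPM in aged lean 16, against 1.34 to 5.99 CPM in the other aged lean libraries. In the same library Il33 was at 1.94 CPM, against 0.0578 to 0.233 CPM in the others, and Ccl17 was at 0 counts, against 0.124 to 0.287 CPM. The young lean library YL512 was high for Ccl2, with 126 CPM against 21.8 to 43.1 CPM, for Ccl11, with 2 CPM against 0.129 to 0.403 CPM, and for Cxcl10, with 0.745 CPM against 0 to 0.118 CPM.

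The obesity effect on Ccl9 differed between the ages by 1.78 on the log2 scale in the interaction test, with a fall in young and a rise in aged mice.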

How the results depend on the processing

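Of 433 values of called members under alternatives, 369 kept their direction and side of the threshold, 64 kept the direction only and 0 reversed. Most of these values come from the 30 fits that left out 1 library. Many of those left out a library of a group not compared, where the difference can hardly change. The total is therefore no measure of single calls: Ccl9 and Ccl25 for obesity in young mice held in 5 of 10 other fits each. The counts of called members follow, each with the count over all genes in brackets. For age in obese mice 2 members were called (443 genes), and without a filter on low counts 1 (253), with only the groups compared 1 (181), with DESeq2 5 (855), with limma voom 14 (2870), without young obese 1 and 2 together 9 (643), without aged obese 10 and 12 together 7 (2679), and without aged lean 16, aged obese 15 and 17 together 1 (89). For obesity in young mice 3 were called (1275), and without a filter 1 (371), with a length offset 1 (418), with only the groups compared 2 (1642) and with limma voom 9 (4265). Without young obese 1 and 2 together it was 1 (143), and without aged lean 16, aged obese 15 and 17 together 4 (1666). For obesity in aged mice 1 was called (32), and with only the groups compared 0 (0), with DESeq2 2 (187), with limma voom 4 (114), without young obese 1 and 2 together 2 (49), and without aged obese 10 and 12 together 0 (9). For aged obese against young lean 4 were called (1483), and with only the groups compared 3 (410), with DESeq2 7 (2075) and with limma voom 6 (695). Without young obese 1 and 2 together it was 6 (1771), without aged obese 10 and 12 together 5 (1513), and without aged lean 16, aged obese 15 and 17 together 0 (532). For the interaction 1 was called (1), and with limma voom 2 (91). In each of these the cause was not tested.

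Leaving out each library in turn gave 1 to 5 members for age in obese mice, 0 to 4 for obesity in young mice, 1 to 3 for obesity in aged mice, 1 to 8 for aged obese against young lean, 0 throughout for age in lean mice and 1 throughout for the interaction. For the pairs of members r ranged from 0.742 to 0.808 for Ccl2 with Ccl7, 0.805 to 0.861 for Il6 with Lif, -0.667 to -0.527 for Cxcl12 with Csf1, 0.228 to 0.472 for Cxcl1 with Cxcl5 and 0.0787 to 0.507 for Ccl2 with Cxcl1. Cxcl1 with Cxcl5 passed without aged obese 10 (0.408) or 15 (0.472), and Ccl2 with Cxcl1 passed without aged obese 15 (0.507). Counts of calls over all genes were also compared, first over the alternatives other than leaving out 1 library. For age in obese mice they ranged from 89 to 2870, beside 443. For obesity in young mice the range was 0 to 4265, beside 1275, and for obesity in aged mice 0 to 187, beside 32. For aged obese against young lean it was 410 to 2075, beside 1483. The interaction gave 0 to 91, beside 1, and age in lean mice 0 to 8, beside 0. Fits without 1 library gave 43 to 1027 genes for age in obese mice and 201 to 2197 for obesity in young mice. They gave 9 to 435 for obesity in aged mice and 642 to 2405 for aged obese against young lean. The interaction had 1 to 6 and age in lean mice 0 to 1.

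Lean and obese groups share some mouse numbers in the titles. Deviations of same-numbered libraries correlated at 0.0823 and 0.215 in young mice and at 0.199, 0.39, -0.0987 and -0.517 in aged mice. These values show no steady likeness, but they were not set beside those of differently numbered libraries. They cannot decide whether the numbers pair the libraries. A replicate block over these 6 pairs (12 libraries) called 0 members for obesity in young mice, 0 for obesity in aged mice and 0 for the interaction, of 0 genes in all in each, with Ccl9 at -0.17, 1.35 and 1.53 on the log2 scale. Members below 1 CPM rest on few reads. In the 5 comparisons of 2 groups the abundant Cxcl1 had an SE of 0.58 to 0.62. The SE was larger for Ccl11 (0.69 to 0.76), Il33 (0.67 to 0.69), Cxcl10 (0.64 to 0.69) and Ccl17 (0.63 to 0.66). It was not larger for Ccl6 (0.56 to 0.60), Cxcl3 (0.46 to 0.51) and Ccl28 (0.34 to 0.40). Cxcl1 itself varied widely, beside an SE of 0.12 to 0.13 for Csf1.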
